A study of Rattus norvegicus with 15 samples.

Results

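Interferon-inducible genes, 8 in number, were followed across primary rat hepatocytes exposed to flutamide: Ifit3, Ifitm2, Ifit2, Irf7, Mx1, Mx2, Isg15 and Cxcl10. They were chosen by gene symbol with earlier results of these same arrays known, and each had 1 probe set, so they are 8 of the 14506 genes analysed. Because the choice had these values in view, the members' levels and differences are given as a description, with no test. Flutamide blocks the androgen receptor and is known for its toxicity to the liver. Hepatocytes fresh from rat liver attached for 24 h in perfused microfluidic biochips coated with collagen, and then received the solvent DMSO alone (5 arrays), 10 µM flutamide (6 arrays) or 100 µM flutamide (4 arrays) for 24 h. The attachment medium held bovine serum and insulin and the perfusion medium insulin, transferrin, selenium and antibiotics in every group. The labels give neither the strain, sex and age of the rats nor whether biochips held cells of separate animals or isolations, so any p-value measures only the spread between these samples. Each array is called by the number in its sample title. Numbers 10 to 16 form number series 1 (2 DMSO, 3 10 µM and 2 100 µM arrays) and numbers 20 to 27 form number series 2 (3, 3 and 2), and the labels do not say what the numbering stands for.

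Interferons are cytokines that cells release on sensing viral nucleic acid, or, for interferon gamma, that lymphocytes and natural killer cells release. Type I interferon binds its receptor and activates transcription factors that bind the interferon-stimulated response element, a DNA motif in the promoters of antiviral genes. In liver both hepatocytes and resident macrophages (Kupffer cells) answer interferon in this way. IRF7 is a transcription factor of the interferon genes themselves, CXCL10 a chemokine, ISG15 a ubiquitin-like modifier, IFIT2 and IFIT3 proteins that act on foreign RNA, IFITM2 a membrane protein that hinders virus entry, and MX1 and MX2 dynamin-like antiviral GTPases.

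The promoters are shown because the interferon motif is the one element these genes are commonly held to share. Of the 8 genes, 5 matched a RefSeq promoter (assembly GRCr8, from 250 bases before the gene start to 50 bases after it, 300 bases, written 5′ to 3′ on the gene's strand). Capitals mark matches to the interferon-stimulated response element, written as GAAA, any 2 bases and GAAA and searched on both strands, so that a pair of TTTC is the same motif on the other strand.
Irf7 (chr1:205799974-205800273, minus strand): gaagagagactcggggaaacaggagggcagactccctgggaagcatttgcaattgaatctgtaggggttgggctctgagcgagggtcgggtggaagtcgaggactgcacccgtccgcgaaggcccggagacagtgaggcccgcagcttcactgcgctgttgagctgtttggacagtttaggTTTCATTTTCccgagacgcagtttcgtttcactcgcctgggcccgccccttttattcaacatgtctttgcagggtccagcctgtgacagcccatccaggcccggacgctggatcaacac
Cxcl10 (chr14:15988816-15989115, plus strand): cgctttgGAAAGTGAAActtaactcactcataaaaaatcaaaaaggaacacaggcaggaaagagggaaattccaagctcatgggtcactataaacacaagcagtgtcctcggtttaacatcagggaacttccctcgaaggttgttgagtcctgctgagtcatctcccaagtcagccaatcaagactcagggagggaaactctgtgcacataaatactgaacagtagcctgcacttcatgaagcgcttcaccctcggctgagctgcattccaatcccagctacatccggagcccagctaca
Ifit3 (chr1:241527076-241527375, plus strand): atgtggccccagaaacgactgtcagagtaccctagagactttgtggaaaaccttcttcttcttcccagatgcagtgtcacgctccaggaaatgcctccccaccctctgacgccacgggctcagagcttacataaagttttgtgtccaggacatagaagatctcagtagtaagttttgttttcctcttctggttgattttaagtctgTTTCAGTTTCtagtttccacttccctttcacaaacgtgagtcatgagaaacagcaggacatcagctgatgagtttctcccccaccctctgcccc
Ifitm2 (chr1:205482299-205482598, minus strand): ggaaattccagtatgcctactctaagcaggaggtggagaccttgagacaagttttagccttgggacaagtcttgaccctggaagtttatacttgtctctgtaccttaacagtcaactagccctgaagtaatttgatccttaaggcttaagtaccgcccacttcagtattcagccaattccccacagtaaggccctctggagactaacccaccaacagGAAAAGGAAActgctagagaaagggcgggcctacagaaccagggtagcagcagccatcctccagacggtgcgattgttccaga
Mx1 (chr11:50294557-50294856, minus strand): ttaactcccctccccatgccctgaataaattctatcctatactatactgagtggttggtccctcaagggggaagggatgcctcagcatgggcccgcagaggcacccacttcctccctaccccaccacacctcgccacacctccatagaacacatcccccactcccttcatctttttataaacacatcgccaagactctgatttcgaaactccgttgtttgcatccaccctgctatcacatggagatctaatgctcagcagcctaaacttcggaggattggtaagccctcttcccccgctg
The motif was present in 4 of these 5 promoters, against 3.92% of 33469 rat promoters of the same length. It began 69 bases before the start in Irf7, 243 in Cxcl10, 44 in Ifit3 and 33 in Ifitm2, and these letters were not in the Mx1 window. A match describes letters only and is not a shown binding site. Ifit2 and Ifit3 lie side by side on chromosome 1 with 0 genes between them, and Mx1 and Mx2 lie on chromosome 11 with 1 gene between them. These pairs, and Ifitm2 with its relatives Ifitm1 and Ifitm3, are similar in sequence. Probe sequences were not used here, so shared hybridization within a pair was not tested.

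The deposited values are on a log2 scale, so a difference of 1 is a 2-fold difference. Array medians lay between 5.38 and 5.51, and pairs of arrays correlated at 0.952 to 0.991 across genes. Array 23 (10 µM) was the most deviant, its median correlation being 0.967 and its quality weight 0.208, followed by the 100 µM array 15 (0.971, 0.462) and the 10 µM array 24 (0.978, 0.582). The other 12 weights lay between 0.966 and 1.91. All 9 hepatocyte markers were measured and averaged 10.76 to 11.35 on each array, with albumin at a mean of 12.91. With limma, 0 of 14506 genes passed an adjusted p of 0.05 (Benjamini-Hochberg) in any of the 3 dose comparisons (0%). At an unadjusted p under 0.05 there were 1009 genes for 10 µM against DMSO, 934 for 100 µM against DMSO and 670 for 100 µM against 10 µM. The first and second of these share the DMSO arrays, and every pair of dose comparisons shares a group.

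The members did not move as one with dose. At 10 µM, Isg15, Ifit3 and Ifitm2 had higher means than in DMSO, by 0.90, 0.80 and 0.51, and Cxcl10 a lower one, at -0.70. At 100 µM, Isg15 was again higher than in DMSO, by 0.68, while Ifitm2, Cxcl10, Ifit3 and Ifit2 were lower, at -0.98, -0.83, -0.50 and -0.29. Irf7, Mx1 and Mx2 had means that differed from DMSO by up to 0.26 in size. Over the 8 members the median difference was -0.01 at 10 µM (4 higher, 4 lower), against -0.00 over all genes. It was -0.23 at 100 µM (2 higher, 6 lower), against 0.02 over all genes, of which 55.7% were higher. Much of the 10 µM difference of Ifit3 and Ifitm2 came from arrays 23 and 24, as the plot of values by array shows.

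**Figure D1:**
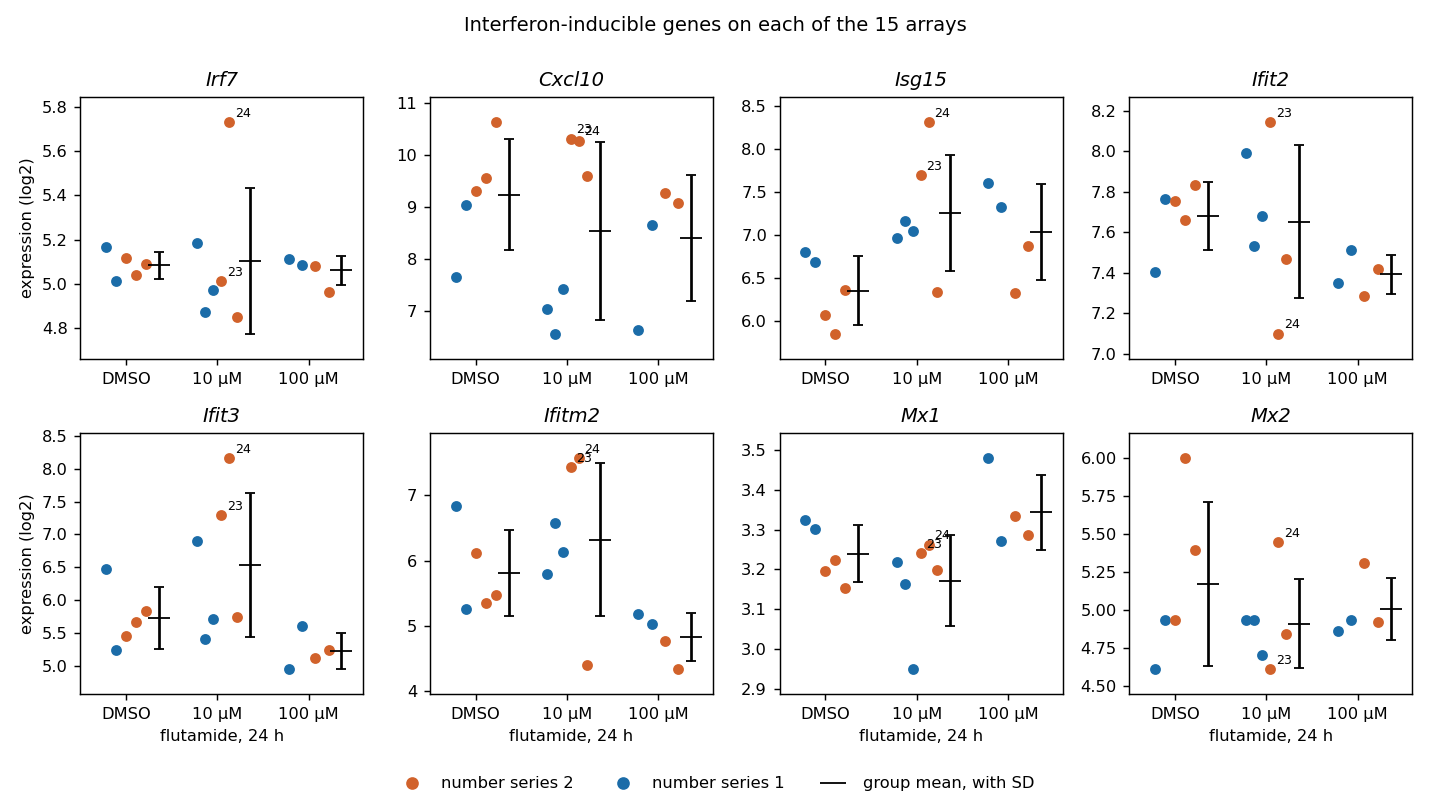
Deposited log2 expression of each gene (y axis, scaled separately for each gene) on all 15 arrays by flutamide dose (x axis); points are arrays coloured by number series, and the horizontal line and bar beside each group are its mean and SD. The 10 µM arrays 23 and 24 are marked: both lie above every other array for Isg15, Ifit3 and Ifitm2.

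Irf7 encodes the factor that sustains interferon production. In DMSO it measured 5.17 and 5.01 in number series 1 and 5.12, 5.04 and 5.09 in number series 2. At 10 µM its lowest, median and highest values were 4.85, 4.99 and 5.73, and at 100 µM it was at 5.11, 5.09, 5.08 and 4.96. A single array, 10 µM array 24 at 5.73, stood above the rest, which all lay between 4.85 and 5.18. The 3 groups overlapped. The mean was 0.02 higher at 10 µM than in DMSO (SE 0.13) and -0.11 without array 24, and -0.02 at 100 µM against DMSO (SE 0.14).

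Cxcl10, which draws T cells and natural killer cells carrying the receptor CXCR3, had the largest SD over the 15 arrays of all 14506 genes (1.35). Its lowest value was 6.57 in 10 µM array 13 and its highest 10.63 in DMSO array 22, a 16.7-fold range. In number series 2 it measured 9.32, 9.57 and 10.63 in DMSO, 10.32, 10.28 and 9.61 at 10 µM, and 9.28 and 9.09 at 100 µM. In number series 1 it measured 7.66 and 9.05 in DMSO, 7.04, 6.57 and 7.43 at 10 µM, and 6.64 and 8.66 at 100 µM. All 8 arrays of number series 2 lay above all 7 of number series 1, with a mean of 9.76 ± 0.57 (SD, n = 8) against 7.58 ± 0.96 (n = 7), a difference of 2.18. Of all genes 0.207% had series 2 wholly above series 1 in this way. Limma, with the dose groups in the model, called 79 genes between the series (0.545%).

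The dose differences of Cxcl10 were smaller than that gap, and the 10 µM difference from DMSO had opposite signs in the 2 series. For 10 µM against DMSO the difference was -0.70 over all arrays (SE 0.77), 0.23 within number series 2 and -1.34 within number series 1. The 100 µM value against DMSO was -0.83 (SE 0.85), -0.66 within series 2 and -0.71 within series 1. Within series 1, all 3 of the 10 µM arrays lay under both DMSO arrays, as did 12.2% of all genes. Within series 2, both 100 µM arrays lay under all 3 DMSO arrays, as did 14.4% of all genes. Because every series 1 array at 10 µM was low and 2 of the 3 series 2 arrays at that dose were 23 and 24, leaving out these 2 arrays took the 10 µM difference to -1.58.

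Isg15, which is joined to proteins much as ubiquitin is, was higher at both doses. In number series 1 it measured 6.81 and 6.68 in DMSO, 6.97, 7.16 and 7.05 at 10 µM, and 7.61 and 7.32 at 100 µM. In number series 2 it measured 6.07, 5.85 and 6.35 in DMSO, 7.70, 8.31 and 6.34 at 10 µM, and 6.33 and 6.87 at 100 µM. In number series 1 the 3 groups followed each other by dose without overlap, a rising order that 0.641% of all genes had. In number series 2 they overlapped, since 10 µM array 25 and 100 µM array 26 lay within the DMSO range. Isg15 averaged 7.25 ± 0.68 at 10 µM (SD, n = 6) and 6.35 ± 0.40 in DMSO (n = 5), a difference of 0.90 (SE 0.31, 1.87-fold higher). It averaged 7.03 ± 0.56 at 100 µM (n = 4), which is 0.68 above DMSO (SE 0.35, 1.60-fold higher).

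The difference of Isg15 from DMSO was positive in both series at both doses. At 10 µM it was 1.36 within series 2 and 0.31 within series 1, and 0.53 without arrays 23 and 24. At 100 µM it was 0.51 within series 2 and 0.72 within series 1. Leaving out any 1 array kept it between 0.69 and 1.08 at 10 µM and between 0.49 and 0.92 at 100 µM. The 2 doses themselves were not ordered, with 100 µM at -0.22 against 10 µM over all arrays, -0.85 within series 2 and 0.41 within series 1.

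Ifit2 and Ifit3, tetratricopeptide proteins that form complexes with other IFIT proteins, did not share a pattern. Ifit3 measured 5.45, 5.67 and 5.83 in DMSO, 7.29, 8.16 and 5.74 at 10 µM, and 5.12 and 5.24 at 100 µM in number series 2. In number series 1 it measured 6.48 and 5.24 in DMSO, 6.90, 5.42 and 5.71 at 10 µM, and 4.96 and 5.61 at 100 µM. Arrays 24, 23 and 12, all at 10 µM, held its 3 highest values, followed by DMSO array 10, and the other 10 µM arrays lay within the DMSO range. Ifit3 averaged 6.54 ± 1.09 at 10 µM (SD, n = 6) and 5.73 ± 0.47 in DMSO (n = 5), a difference of 0.80 (SE 0.42, 1.75-fold higher). At 100 µM it averaged 5.23 ± 0.28 (n = 4), at -0.50 against DMSO (SE 0.46) and -1.31 against 10 µM (SE 0.45, 2.47-fold lower).

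The 10 µM difference of Ifit3 from DMSO was 1.42 within series 2, 0.15 within series 1 and 0.21 without arrays 23 and 24. Its 100 µM difference was -0.47 within series 2 and -0.58 within series 1. Against 10 µM, the 100 µM difference was -1.88 within series 2, -0.73 within series 1 and -0.71 without arrays 23 and 24. Within series 2 both 100 µM arrays lay under all 3 of the DMSO arrays, as in 14.4% of all genes. They also lay under all 3 of the 10 µM arrays, as in 7.22% of all genes.

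Ifit2 had a narrower range, 7.10 to 8.14. Both ends were in the 10 µM group: array 23 held the highest value (8.14) and array 24 the lowest (7.10), the opposite ends of the gene on the 2 arrays where Ifit3 was highest. DMSO arrays measured 7.40, 7.76, 7.75, 7.66 and 7.83, the median at 10 µM was 7.61, and 100 µM arrays measured 7.35, 7.51, 7.29 and 7.42. The 100 µM mean of 7.39 ± 0.10 (SD, n = 4) was -0.29 against the DMSO mean of 7.68 ± 0.17 (SE of the difference 0.17, n = 5), -0.39 within series 2 and -0.15 within series 1. The groups overlapped through DMSO array 10 at 7.40. The 10 µM difference from DMSO was -0.03 (SE 0.15).

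Ifitm2 encodes a small membrane protein that blocks fusion of viruses in endosomes. In number series 2 it measured 6.11, 5.36 and 5.47 in DMSO, 7.43, 7.57 and 4.41 at 10 µM, and 4.76 and 4.34 at 100 µM. In number series 1 it measured 6.83 and 5.26 in DMSO, 5.79, 6.57 and 6.14 at 10 µM, and 5.18 and 5.04 at 100 µM. All 4 of the 100 µM arrays, 5.18 at most, lay under all 5 DMSO arrays, 5.26 at least. Ifitm2 is the 1 member whose groups did not overlap in this comparison, where 0.931% of all genes lay wholly lower and 2.06% wholly on either side. The mean was 4.83 ± 0.37 at 100 µM (SD, n = 4) and 5.81 ± 0.66 in DMSO (n = 5), a difference of -0.98 (SE 0.53, 1.97-fold lower), -1.10 within series 2 and -0.94 within series 1.

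At 10 µM Ifitm2 spanned most of its range, since array 25 (4.41) was close to the lowest value of the gene and arrays 23 and 24 held the 2 highest. The mean of 6.32 ± 1.17 (SD, n = 6) was 0.51 above DMSO (SE 0.47), 0.83 within series 2 and 0.12 within series 1. Without arrays 23 and 24 the difference was -0.08. The 100 µM mean was -1.49 against 10 µM (SE 0.51, 2.81-fold lower), -1.92 within series 2, -1.06 within series 1 and -0.90 without arrays 23 and 24. No member had 10 µM arrays wholly above or below the DMSO arrays, against 0.634% of all genes in either direction.

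Mx1, which in mice protects against influenza virus, varied least, between 2.95 and 3.48. No detection value was used, so whether values this low lie above background is not known. It measured 3.32, 3.30, 3.20, 3.22 and 3.15 in DMSO, 2.95 to 3.26 with a median of 3.21 at 10 µM, and 3.48, 3.27, 3.33 and 3.29 at 100 µM. All 4 of the 100 µM arrays lay above all 6 of the 10 µM arrays, as was so for 0.503% of all genes (0.827% in either direction), by a mean difference of 0.17 (SE 0.07, 1.13-fold higher). The lowest value at 100 µM, 3.27, and the highest at 10 µM, 3.26, were almost the same. The difference from DMSO was 0.10 at 100 µM (SE 0.08) and -0.07 at 10 µM (SE 0.07).

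Mx2, a cytoplasmic relative of MX1 in rodents, had its highest value in DMSO, 5.997 in array 21. The other DMSO arrays were at 4.61, 4.94, 4.93 and 5.39, 10 µM arrays at 4.61 to 5.44 with a median of 4.89, and 100 µM arrays at 4.86, 4.93, 5.31 and 4.92. The groups overlapped. On 4 arrays of the 3 groups, 20, 12, 13 and 16, the deposited value was the same number to all its digits (4.93), and 9.43% of all genes had 1 value on 4 or more arrays. The difference from DMSO was -0.26 at 10 µM (SE 0.21) and -0.17 at 100 µM (SE 0.23), and without DMSO array 21 the second was 0.04.

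**Figure D2:**
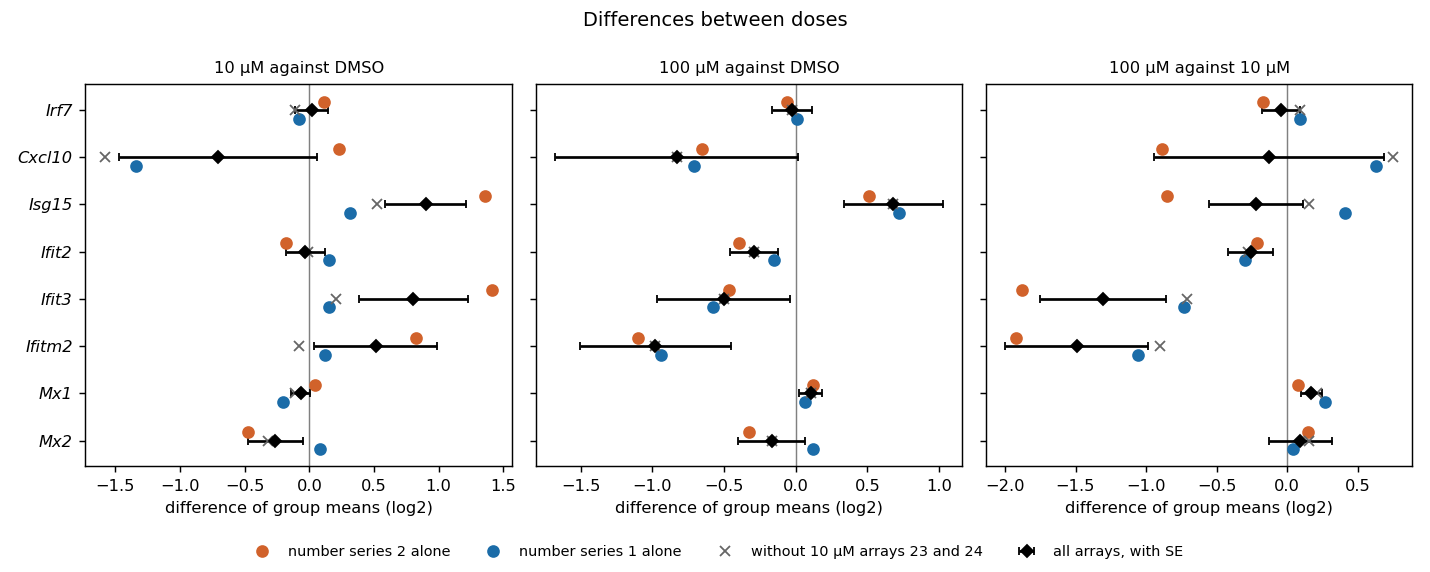
Difference of group means (x axis, log2) for each gene (rows) in 3 dose comparisons; diamonds with bars are all arrays with the SE from limma, circles each number series alone and crosses the values without 10 µM arrays 23 and 24. Ifit3 and Ifitm2 stand at 0.80 and 0.51 for 10 µM against DMSO with all arrays, and at 0.21 and -0.08 without those 2 arrays.

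Arrays 23 and 24 were singled out after their values were seen. On both, 5 of 8 members (Cxcl10, Isg15, Ifit3, Ifitm2 and Mx1) lay above the other 4 arrays of the 10 µM group, and so did 14.6% of all genes. Isg15, Ifit3 and Ifitm2 lay above all other 13 arrays, and so did 2.87% of all genes. The mean of the members' standardized values, each gene in SDs from its own mean, was 1.28 on array 24 and 0.76 on array 23, against -0.53 to 0.18 on the others. Array 24 held the highest value of 4 members (Irf7, Isg15, Ifit3 and Ifitm2) and array 23 of 1 (Ifit2). Over all genes, array 23 held the highest value for 18.8% and array 24 for 8.95%. The third 10 µM array of number series 2, array 25, was at -0.53.

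**Figure D3:**
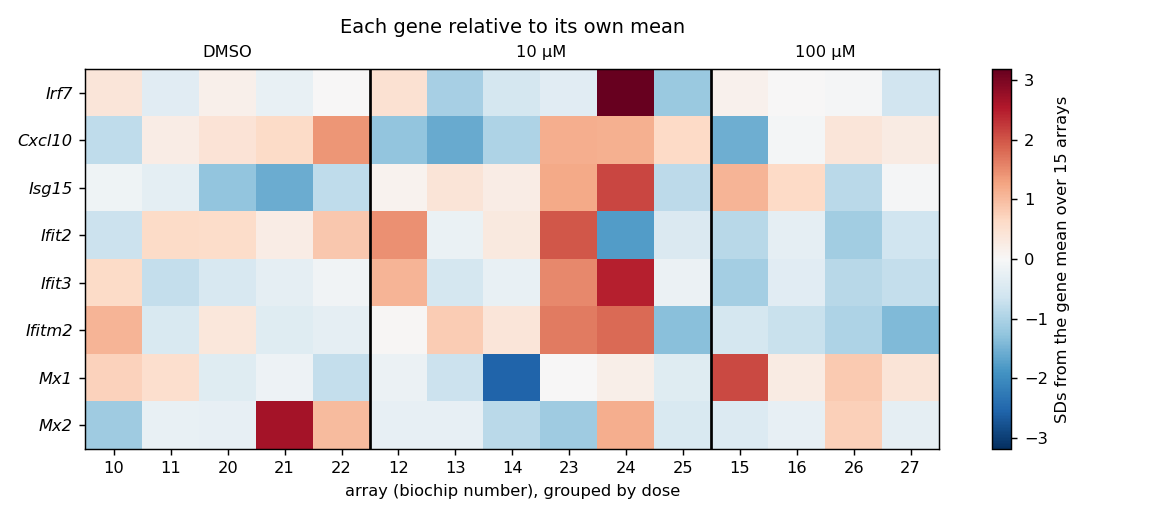
Each gene (rows) on each array (columns, grouped by dose) in SDs from its own mean over 15 arrays, red above and blue below. The column of array 24 is red for 7 genes and blue for Ifit2, and that of array 23 is reddest for Ifit2, Ifitm2, Ifit3 and Isg15.

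Without arrays 23 and 24 the members' median difference for 10 µM against DMSO was -0.09 (2 higher, 6 lower), and Isg15 (0.53) and Ifit3 (0.21) were the 2 that remained higher. Within number series 2 it was 0.17 (6 higher, 2 lower) and within number series 1 0.10 (5 higher, 3 lower). At 100 µM against DMSO the median was -0.36 within series 2 and -0.07 within series 1. Between 100 and 10 µM it was -0.17 over all arrays (2 higher, 6 lower), -0.53 within series 2, 0.06 within series 1 and 0.12 without arrays 23 and 24. All-gene medians stayed between -0.01 and 0.03 in these settings.

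Within a number series, groups of 2 or 3 arrays often do not overlap, so the members' counts stand beside those of all genes. For 10 µM against DMSO, 0 members did not overlap within series 2 (16.3% of all genes) and 3 did not within series 1 (25.5%): Isg15 was higher and Cxcl10 and Mx1 lower. For 100 µM against DMSO, 5 members did not overlap within series 2 (29.3%): Mx1 was higher, and Cxcl10, Ifit2, Ifit3 and Ifitm2 lower. Within series 1, 2 did not (30.6%), Isg15 higher and Ifitm2 lower. Between 100 and 10 µM, 3 members did not overlap within series 2 (14.9%), Mx1 higher and Cxcl10 and Ifit3 lower. Within series 1, 4 did not (22.7%), Isg15 and Mx1 higher and Ifit2 and Ifitm2 lower. Ifitm2 was the 1 member lower at 100 µM than in DMSO without overlap in both series. This follows from its lack of overlap over all arrays, which 0.931% of all genes had in that direction, and is not a separate result.

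The members varied together on few arrays. Over the 28 pairs of members, Pearson's r across the 15 arrays ran from -0.37 to 0.75 with a median of 0.10. Irf7, Isg15, Ifit3 and Ifitm2, a subset picked after the values were seen, had 6 pairs with r of 0.51 to 0.75 and Spearman's rho of 0.12 to 0.64. The other 22 pairs had a median r of 0.01. These are descriptions, with no p, of arrays that share 3 dose groups and 2 number series. After group means were taken out, the 6 pairs had r of 0.58 to 0.81, and without arrays 23 and 24 (n = 13) they had r of -0.05 to 0.44, with a median of 0.20.

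Ifit3 and Ifitm2 were the closest pair, at r = 0.75 and rho = 0.64 over 15 arrays and 0.44 and 0.44 over 13 without arrays 23 and 24, which are also the 2 arrays farthest from the median of Ifit3. Irf7 and Ifit3 had r = 0.69 (rho 0.31) and, without arrays 24 and 25, the 2 farthest from the median of Irf7, 0.29. Isg15 and Ifit3 had r = 0.56 (rho 0.27) and -0.05 without arrays 23 and 24. The higher coefficients thus rested in large part on arrays 23 and 24. The neighbours Ifit2 and Ifit3 had r = 0.10 (rho 0.28), and the neighbours Mx1 and Mx2 had r = 0.02 (rho -0.05). Cxcl10 and Isg15 had r = -0.17 over 15 arrays and -0.77 (rho -0.82) without arrays 23 and 24. Within series, those 2 genes had r of 0.48 in series 2 (n = 8) and -0.47 in series 1 (n = 7).

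**Figure D4:**
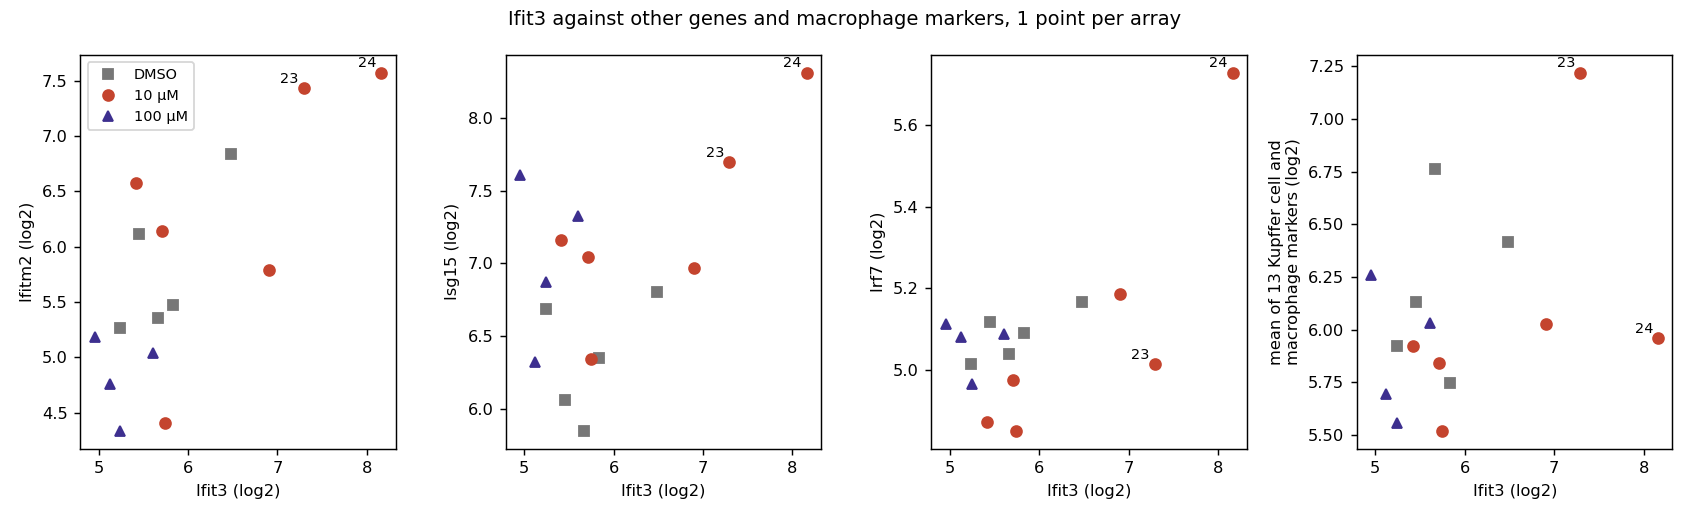
Ifitm2, Isg15, Irf7 and the mean of 13 Kupffer cell and macrophage markers (y axes, log2) against Ifit3 (x axis, log2), 1 point per array, shaped and coloured by dose. Arrays 23 and 24 lie at the right for Ifit3, at 7.29 and 8.16, and only array 23 is also highest for the macrophage markers, at 7.22.

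Other cells of the liver were followed through marker lists. The 13 measured of 14 Kupffer cell and macrophage markers had a mean per array of 5.75 to 6.76 in DMSO, 5.52 to 7.22 at 10 µM and 5.56 to 6.26 at 100 µM. In bulk samples fewer cells of a type and less RNA per cell cannot be told apart. Array 23 was highest (7.22), and 9 of the 13 markers peaked there, among them Cd163, Marco and Vsig4. Array 24, which held the highest value of 4 members, ranked 8 of 15 for these markers (5.96). DMSO array 21 was second (6.76) and held the lowest Isg15 value of all arrays, 5.85, with Ifit3 at 5.67 and Ifitm2 at 5.36. The same array held the highest Mx2 value, 5.997, and ranked 5 of 15 for Cxcl10. Array 25 was lowest for the macrophage markers (5.52). Among the members it ranked 15 for Irf7 (4.85) and 14 for Ifitm2 (4.41), but 4 for Cxcl10 (9.61) and 6 for Ifit3 (5.74). It ranked 10 to 12 for the rest. On the log2 scale no value is 0, so absence of these cells cannot be read.

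The 100 µM arrays of number series 2, 26 and 27, ranked 13 and 15 of 15 for Ifitm2. They were also low for macrophage markers, at 5.69 in array 26 and 5.56 in array 27. The 100 µM arrays of series 1, with Ifitm2 also under every DMSO array, were at 6.26 and 6.03 for these markers. The part of these cells in the Ifitm2 difference was not tested. The 9 measured lymphocyte and natural killer cell markers averaged 4.54 to 4.71 in DMSO, 4.56 to 4.65 at 10 µM and 4.66 to 4.72 at 100 µM. The plasmacytoid dendritic cell markers, 4 measured of 5, are of the cells known for high interferon output. They averaged 4.91 to 5.05 in DMSO, 4.95 to 5.24 at 10 µM and 4.93 to 5.11 at 100 µM. Array 23 (5.24) and array 24 (5.17) ranked 1 and 2 of 15 for these markers. For the lymphocyte and natural killer cell markers the same arrays ranked 8 and 9. Tlr7 and Tlr9, also on a pathway list below (nucleic acid sensing), peaked on array 23, Il3ra on array 24 and Flt3 on array 27. The part of plasmacytoid dendritic cells in the values of Isg15, Ifit3 and Ifitm2 on arrays 23 and 24 was not tested. Endothelial (5 measured) and stellate cell and fibroblast markers (9 measured) were highest on array 23, at 5.07 and 5.62. The hepatocyte markers were highest there too, at 11.35, with 6 of 9 peaking on that array, as did 18.8% of all genes.

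The wider interferon pathway was read from 7 lists of 139 genes, of which 106 were measured with a single gene name, and the other 33 are not analysed here. Limma called 0 of the 106 in each dose comparison, as over all genes. At an unadjusted p under 0.05 there were 12 for 10 µM against DMSO, which is 11.3% against 6.96% of all genes. There were 9 for 100 µM against DMSO (8.49%, against 6.44% of all genes) and 5 for 100 µM against 10 µM (4.72%, against 4.62%), both near the share of all genes. For 10 µM against DMSO 44 were higher and 62 lower, with a median difference of -0.03. At 100 µM against DMSO 39 were higher and 67 lower, with a median of -0.08, against 0.02 over all genes. Between 100 and 10 µM 48 were higher and 58 lower, with a median of -0.01. The difference between the series in the dose response, tested by limma as an interaction, was called for 0 of the 106 and for 3 of all genes (0.0207%).

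Among the interferon ligands, Ifnb1, which encodes interferon beta, lay between 3.65 and 4.02 on all arrays and Ifng between 3.37 and 3.90. Among the 8 ligand and receptor genes, 2 were higher and 6 lower at 100 µM than in DMSO. Ifnar1, a chain of the type I receptor, was at -0.49 at 100 µM against 10 µM (SE 0.22, limma adjusted p = 0.963), and arrays 23 and 24 were highest, at 7.79 and 7.82. Among 14 nucleic acid sensing genes, Ifih1, which encodes the RNA sensor MDA5, was at -0.62 at 100 µM against 10 µM (SE 0.22, limma adjusted p = 0.963). Its values on arrays 23 and 24, 9.05 and 9.10, were also the 2 highest. Tbk1, the kinase that activates IRF3 and IRF7, was at 0.33 for 10 µM against DMSO (SE 0.12, limma adjusted p = 0.572).

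Of the JAK-STAT and IRF list (8 measured), Irf1, a factor induced by interferon gamma, was at -0.56 for 10 µM against DMSO (SE 0.22, limma adjusted p = 0.612), with 6.54 on average at 10 µM and 7.10 in DMSO. That difference was -0.82 within series 2 and -0.14 within series 1. Jak2 was at -0.51 for 100 µM against DMSO (SE 0.19, limma adjusted p = 0.738), -0.95 within series 2 and 0.04 within series 1. Of 47 antiviral effectors, 21 were higher and 26 lower at 10 µM, and 15 higher and 32 lower at 100 µM, each against DMSO. Isg20, an exonuclease that degrades RNA, was at 0.41 for 10 µM against DMSO (SE 0.16, limma adjusted p = 0.612). Of the 7 genes of ISG15 conjugation and feedback, Trim25, an E3 ligase, was at -0.57 for 100 µM against DMSO (SE 0.17, limma adjusted p = 0.738), -0.93 within series 2 and -0.17 within series 1. Isg15 itself had the other sign in that comparison, 0.68.

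Antigen processing and interferon gamma targets were lower at 10 µM than in DMSO in 12 of 14 cases, with a median of -0.10, where 49.1% of all genes were higher. At 100 µM 6 of the 14 were higher and 8 lower than in DMSO, and 8 were higher and 6 lower than at 10 µM. Psmb10, an immunoproteasome subunit, was at -0.31 for 10 µM against DMSO (SE 0.13, limma adjusted p = 0.658). Of 8 chemokine genes, Cxcl9, a CXCR3 ligand like Cxcl10, was at 0.59 for 10 µM against DMSO (SE 0.18, limma adjusted p = 0.496) and 0.49 for 100 µM against DMSO (SE 0.20, limma adjusted p = 0.745). In number series 2 Cxcl9 measured 10.13, 10.16 and 10.42 in DMSO, 10.86, 11.45 and 11.13 at 10 µM and 10.99 and 11.03 at 100 µM, without overlap between DMSO and either dose. Within that series 16.3% of all genes did not overlap between DMSO and 10 µM, and 29.3% between DMSO and 100 µM, in either direction. In number series 1 all 7 arrays lay between 11.06 and 11.25. Cxcl10, by contrast, was lower in number series 1 than in number series 2 on every array. Between the series limma called 1 of the 106 genes, Plscr1, a phospholipid scramblase, with a mean of 6.32 ± 0.31 in series 2 (SD, n = 8) and 6.90 ± 0.09 in series 1 (n = 7), a difference of -0.58 (SE 0.11, limma adjusted p = 0.0287). That call was lost in 10 of 15 fits that left out 1 array, with a limma adjusted p of up to 0.0706, and the difference stayed between -0.66 and -0.51. It was kept without DMSO array 20 or 21, 10 µM array 23 or 24, or 100 µM array 15.

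On 6 of the 106 pathway genes (5.66%) arrays 23 and 24 were both above all others, against 2.87% of all genes: Ifnar1, Ifih1, Tbk1, Oasl, Rsad2 and Ifitm1. Ifitm1, a neighbour and relative of Ifitm2, measured 8.47 on array 23 and 7.63 on array 24. Array 23 held the highest value in 16.0% of pathway genes, against 18.8% of all genes, and array 24 in 15.1%, against 8.95% of all genes.

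The genes whose pattern was most like the members' mean standardized value over 15 arrays were Ccr1 (r = 0.91), Hist1h2an (0.88), Lrg1 (0.87), Ap1s2 (0.87), Hdac3 (0.87), Xcl1 (0.86), Rnf113a2 (0.86), Or4f14d (0.85), Ndufb9 (0.84) and Wrap73 (0.84). None of these 10 is on the pathway lists. Without arrays 23 and 24, r was highest for Or4f14d (0.86), Hdac3 (0.75) and Ccr1 (0.72) and lowest for Wrap73 (0.24). Ccr1 and Or4f14d were dim, with medians of 2.87 and 2.94 over the arrays. Whether values this low lie above background is not known. Array 24 and array 23 held the 2 highest values of each of the 10. The 10 were picked by likeness to a mean that was itself highest on these arrays (1.28 and 0.76). Such peaks are therefore largely built into the choice. Of the pathway genes, 14.2% had r above 0.5, and of all genes outside the members, the pathway genes included, 5.87%.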

How the data were processed

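Expression was measured on 15 Affymetrix arrays. The authors deposited log2 expression values, 1 column per array. RMA and Partek are named, per the submitters' processing notes, with versions and settings not given in the sources used here. RMA corrects background, quantile-normalizes and summarises probes. The values were used as deposited. Arrays have no read depth, so their number limits the precision. No column belonged to another sample (0 columns).

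Of 29214 probe sets, 15310 had 1 gene symbol in the platform annotation. The other 13904 were left out. Symbols were updated through RefSeq gene identifiers (GRCr8, 15279 matched). For 527 genes with several probe sets the one with the highest mean was used, which left 14506 genes. Each member had 1 probe set.

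Groups came from the sample titles. Limma 3.58.1 in R 4.3.3 (lmFit and eBayes) fitted the 3 groups on all 15 arrays, with Benjamini-Hochberg adjustment over all genes and a threshold of 0.05. The SEs are limma's moderated ones. The number series was a covariate in the test between series and a block in an alternative. The fit was tested on simulated data.

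The members and lists were chosen with earlier results of these data known. The text names all members, pathway genes called in a comparison or, with none called, some of those with the lowest p in their list, and the 10 genes most correlated with the members' mean standardized value. Ifnb1, Ifng, Ifitm1 and the genes under other observations were chosen after their values were seen. Alternatives were leaving out each array, renewed quantile normalization, array quality weights, every probe set, a mean log2 minimum of 5 (which 7 of the 8 members pass, all but Mx1), the number series as a block or alone, and fits on 2 groups.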

Additional observations from a re-analysis of the deposited data

Results flagged for a closer look

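In 4 of 102 groups of 4 to 6 arrays, over the members and the pathway genes named by rule, 1 array lay far from the others by Dixon's criterion, where chance gives about 1 in 20. Mx1 was lowest in 10 µM array 14, at 2.95, with the next value of the group at 3.16. Mx2 was highest in 100 µM array 26, at 5.31, with the next at 4.93. Ifngr2, the second chain of the interferon gamma receptor, was highest in 10 µM array 24, at 8.26, with the next at 7.63. Zbp1, a nucleic acid sensor, was lowest in DMSO array 21, at 4.87, with the next at 5.12.

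For 2 members every array of the treated group moved one way in one number series and the other way in the other, against the DMSO mean of that series. The treated groups held only 2 or 3 arrays per series. The share of all genes with this pattern was not counted, so it is not read as a result about these members. Limma's interaction of dose and number series, fitted over all 14506 genes, called 3 genes (0.0207%) and 0 members. No p-value is given for Mx1 and Mx2, because the members were chosen with their values in view. Mx1 at 10 µM against DMSO was at 0.043 within series 2 and -0.20 within series 1. Mx2 at 100 µM against DMSO was at -0.33 within series 2 and 0.12 within series 1.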

How the results depend on the processing

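Limma called 0 genes for 10 µM against DMSO. It called 2 with array quality weights, 7 within number series 2 alone and 0 to 1 when 1 array was left out (1 without DMSO array 11 and 1 without DMSO array 22). For 100 µM against DMSO it called 0, 1 within series 2 alone and 0 whichever array was left out. For 100 µM against 10 µM it called 0 in every setting. Between the series it called 79, 191 with array quality weights, 120 without 10 µM arrays 23 and 24, and 37 (without DMSO array 11) to 129 (without 10 µM array 23) when 1 array was left out. For the interaction of dose and series it called 3, 1 with genes of a mean log2 under 5 left out, 12 with quality weights and 0 (without DMSO array 10 or 11) to 34 (without 100 µM array 16) when 1 array was left out. Leaving out arrays 23 and 24 together was chosen after seeing the data.

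The members' median difference stayed within -0.04 and 0.04 for 10 µM against DMSO, -0.31 and -0.16 for 100 µM against DMSO and -0.26 and 0.04 for 100 µM against 10 µM when 1 array was left out. Over 24 member differences and 480 settings there were 28 changes of sign, in 12 of the 24. Settings that left out only arrays of the group not compared could not change a difference, and they are counted among the 480. The differences of Isg15, Ifit3 and Cxcl10 from DMSO changed sign in 1 setting, Cxcl10 at 10 µM within series 2 alone (0.23). Ifitm2 changed sign at 10 µM without arrays 23 and 24 (-0.08) and in no setting at 100 µM. The causes were not tested.

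No paired analysis was possible because the title numbers are not shared between groups. With the number series as a block, 0 genes were called in each dose comparison. Groups of 4 to 6 arrays limit the precision, and no detection value was used for dim genes such as Mx1.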

Other observations

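Some interferon-induced genes outside the members stood out on few arrays. They were picked after their values were seen and have no test. Rsad2, which encodes the antiviral enzyme viperin, measured 7.11 on 10 µM array 23 and 5.07 on 10 µM array 24, against 4.03 to 4.71 on the other 13 arrays. Rtp4 measured 6.55 on array 24, against 4.11 to 5.32 elsewhere, with array 23 at 4.65. Ccl7, a monocyte chemokine, measured 8.02 on array 24 and 6.94 on DMSO array 22, against 4.91 to 5.95 on the rest. Cd74, the invariant chain of MHC class II, measured 10.06 on array 23, the array with the highest macrophage markers, against 6.28 to 8.01 elsewhere. Of the 2 arrays where Ifit3 was highest, both were thus above all others for Rsad2. Rtp4 and Ccl7 peaked on array 24 and Cd74 on array 23, without the other of the 2 standing out.

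Cxcl11, the third CXCR3 ligand beside Cxcl9 and Cxcl10, measured 7.32 on 10 µM array 24, 7.62 on DMSO array 22 and 6.96 on DMSO array 21, against 4.96 to 6.26 on the other 12 arrays. Ifit1, another member of the IFIT family, lay between 3.95 and 4.35 on all 15 arrays. Usp18, which removes ISG15 from proteins, had its lowest value, 4.25, on 100 µM array 26, while the other 100 µM array of the same number series, array 27, was at 7.13, as was DMSO array 10.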
